A study of Mus musculus with 9 samples.

Results

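TRIM proteins are ubiquitin ligases built from a RING finger, 1 or more B-boxes and a coiled coil, to which most members add a C-terminal domain that chooses the substrate. The RING finger brings in a ubiquitin-conjugating enzyme and passes ubiquitin to that substrate. Many TRIM genes are induced by interferons and act on viral capsids or on the sensors and adaptors of innate immunity, others repress transcription or turn over structural proteins, and a small group works in striated muscle. The genes described here are all protein-coding mouse genes whose symbol starts with Trim and a digit, which gave 68 of the 56719 genes in each count file. Relatives with other symbols, such as Pml, are not among them.

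The transcripts were counted in liver of C57BL/6J mice, in 9 libraries that form 3 groups of 3. The WT group was given phosphate-buffered saline (PBS) over 4 weeks and then PBS by tail vein. The Con A group had the same PBS period and then 10 mg/kg concanavalin A (Con A) by tail vein on the day its livers were taken. Con A is a lectin from the jack bean; in the mouse it stimulates T cells and causes acute hepatitis. The FMT-Con A group was gavaged for 4 weeks with a PBS suspension of faeces from long-term model mice with Con A-induced hepatitis, a model of autoimmune hepatitis, and then received the same dose of Con A. Faeces of healthy donors were not given to any of the groups analysed here, and no group had the faecal gavage without Con A. Genes and signalling that influence how the liver heals itself are the stated question of the series.

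Libraries held 20513051 to 29466806 counts. The labels give the sex as female in 1 field and male in another. The Y-linked gene Ddx3y stood at 107 to 272 CPM (counts scaled to library size) in all 9 libraries, so each held RNA of male mice. Several marker lists moved with the groups, and their part in the TRIM values was not tested. The summed level of 12 T and NK cell markers was 9.65 to 11.1 CPM in the WT libraries, 46.0 to 75.2 CPM after Con A and 22.9 to 25.9 CPM in the FMT-Con A libraries. That of 8 neutrophil markers was 9.67 to 14.8, 222 to 416 and 224 to 316 CPM in the same order. The sum of 7 hepatocyte markers stepped down without overlap, from 55790 to 68040 CPM in WT to 41530 to 45430 and 29030 to 29760 CPM, and that of 9 macrophage markers was 202 to 287, 187 to 197 and 111 to 177 CPM. Sums hide splits within a list. After Con A, 4 of the 9 macrophage genes rose and 3 fell (edgeR adjusted p under 0.05), where 32.5% of all genes rose and 30.9% fell. Of 11 tested T and NK cell genes, 9 rose and 1, Cd4, fell. Mitochondrial transcripts took 19.6 to 22.4%, 5.03 to 9.96% and 7.44 to 11.7% of the counts. Skeletal muscle markers separated libraries within groups. Their 22 genes summed to 39.0 to 56.0 CPM in WT, mostly from Neb (812, 707 and 1019 counts, against at most 37 for any other). In the Con A libraries they summed to 9.82, 19.9 and 2229 CPM, and in the FMT-Con A libraries to 21020, 2044 and 20970 CPM. FMT-Con A libraries 1 and 3 therefore stood apart. For TRIM genes, results that rest on them are given with and without them. For genes of the marker and pathway lists, calls are given with all libraries only.

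Interferon-stimulated genes carry short recognition motifs near their start sites, and the promoters of 5 members that hold such a motif are shown. Each run covers 250 bases before to 50 bases after the start site (RefSeq, build GRCm38.p6), 5′ to 3′ on the gene's strand. Capitals in Trim30a, Trim30d, Trim21 and Trim26 mark the letters GAAA, any 2 bases, GAAA, the core of the interferon-stimulated response element (ISRE), on either strand. Capitals in Trim30c mark TTC, any 3 bases, GAA, the gamma-activated site (GAS), which reads the same on both strands. In Trim21 and Trim26 the capitals hold a pair of overlapping ISRE matches.
Trim30a, chr7:104465144-104465443, minus strand: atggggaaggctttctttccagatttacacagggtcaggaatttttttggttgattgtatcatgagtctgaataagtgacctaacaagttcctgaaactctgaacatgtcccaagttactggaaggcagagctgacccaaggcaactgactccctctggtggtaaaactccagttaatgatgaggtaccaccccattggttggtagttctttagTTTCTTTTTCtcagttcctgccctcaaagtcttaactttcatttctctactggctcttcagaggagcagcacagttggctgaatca
Trim30d, chr7:104507800-104508099, minus strand: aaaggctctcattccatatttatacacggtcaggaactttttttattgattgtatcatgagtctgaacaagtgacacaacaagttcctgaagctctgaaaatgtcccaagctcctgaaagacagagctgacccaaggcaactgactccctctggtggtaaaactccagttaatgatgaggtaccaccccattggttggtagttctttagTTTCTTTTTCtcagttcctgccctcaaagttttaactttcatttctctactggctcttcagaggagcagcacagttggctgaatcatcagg
Trim30c, chr7:104400729-104401028, minus strand: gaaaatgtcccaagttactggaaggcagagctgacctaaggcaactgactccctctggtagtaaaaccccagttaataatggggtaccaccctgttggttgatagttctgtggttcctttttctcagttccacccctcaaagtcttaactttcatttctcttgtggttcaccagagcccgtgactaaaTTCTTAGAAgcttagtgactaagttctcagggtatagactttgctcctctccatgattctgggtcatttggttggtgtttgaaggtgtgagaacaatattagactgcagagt
Trim21, chr7:102565433-102565732, minus strand: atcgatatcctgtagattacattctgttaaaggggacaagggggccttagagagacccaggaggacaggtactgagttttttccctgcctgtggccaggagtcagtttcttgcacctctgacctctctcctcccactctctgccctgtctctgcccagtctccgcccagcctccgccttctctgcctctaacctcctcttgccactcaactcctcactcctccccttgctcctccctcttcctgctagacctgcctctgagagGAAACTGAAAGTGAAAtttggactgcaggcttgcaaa
Trim26, chr17:36836896-36837195, plus strand: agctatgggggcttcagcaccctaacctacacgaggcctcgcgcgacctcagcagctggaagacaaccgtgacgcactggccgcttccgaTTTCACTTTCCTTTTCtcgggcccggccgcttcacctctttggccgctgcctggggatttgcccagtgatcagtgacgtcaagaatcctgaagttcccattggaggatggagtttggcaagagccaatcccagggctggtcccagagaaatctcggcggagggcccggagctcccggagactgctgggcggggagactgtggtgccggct

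RefSeq gave such windows for 53 of the 68 members. An ISRE match was found in 9 of the 53 (17.0%), against 3.99% of all 27025 genes with windows, and a GAS match in 6 of the 53 (11.3%), against 9.55%. The 7 ISRE-bearing members Trim5, Trim12a, Trim12c, Trim21, Trim30a, Trim30d and Trim34a lie on chromosome 7, and the others are Trim2 and Trim26. The shown windows of Trim30a and Trim30d match at 277 of 305 aligned positions (90.8%), while those of Trim30a and Trim30c match at 48.4%. The windows of Trim6, Trim30b, Trim34b, Trim47 and Trim56, which rose after Con A as described below, held neither motif. A match is a description of the letters only.

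Of the 68 members, 47 had enough counts to be tested. Another 17 had 1 to 41 counts over all 9 libraries and were not tested, and Trim42, Trim52, Trim61 and Trim75 had 0. Levels between genes are compared per kilobase of exon (RPKM). Over the 9 libraries, the highest mean levels were 18.4 RPKM for Trim12c, 16.3 for Trim25 and 16.0 for Trim8, followed by Trim28 (14.0), Trim3 (12.3), Trim11 (12.1), Trim41 (11.7), Trim26 (10.5), Trim39 (9.21) and Trim30a (8.25 RPKM). The order depended on the group. In WT the mean level of Trim41 was 17.9 ± 0.650 RPKM and that of Trim30a 2.11 ± 0.386 RPKM, whereas in Con A Trim41 was at 7.77 ± 1.23 and Trim30a at 17.6 ± 7.94 RPKM (SD, n = 3).

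**Figure D1:**
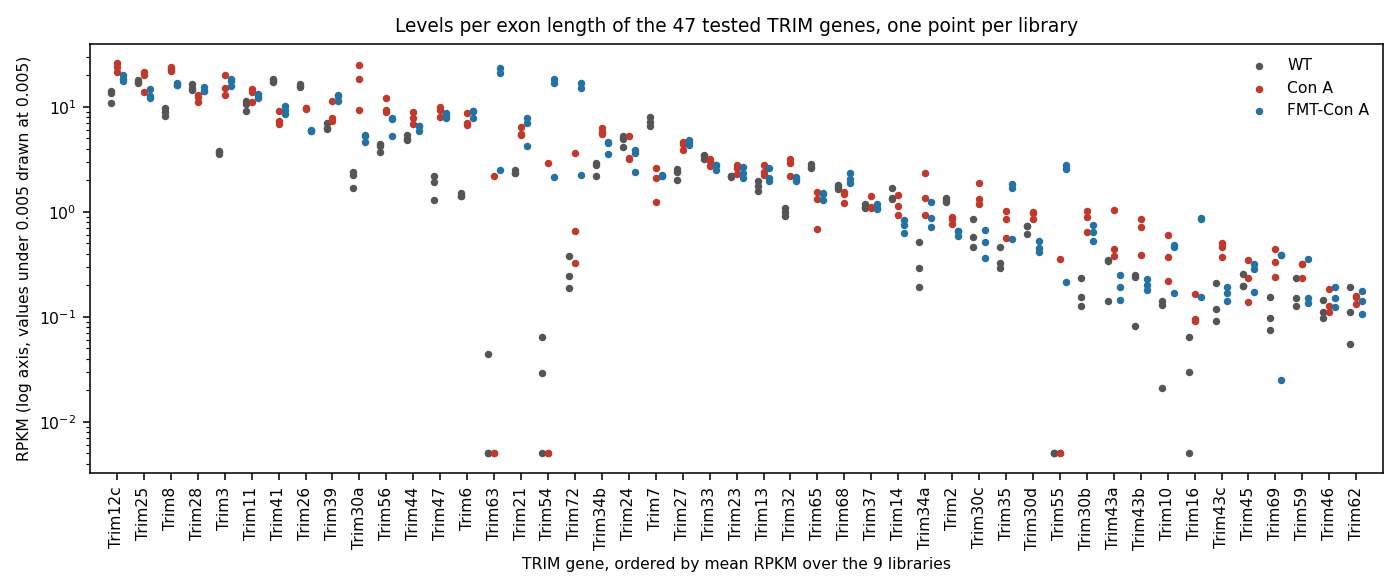
Level of each of the 47 tested TRIM genes in RPKM (log axis), 1 point per library, genes ordered by their mean over the 9 libraries, which runs from 18.4 RPKM for Trim12c downwards. Points are coloured by group, and libraries with 0 counts, found for Trim16, Trim54, Trim55 and Trim63, are drawn at 0.005 RPKM.

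Con A injection alone was first compared with WT. After Con A, 21 of the 47 tested members rose and 6 fell (edgeR adjusted p under 0.05 over all 17704 genes tested), where 32.5% of all genes rose and 30.9% fell. These 27 are 57.4% of the tested members, against 63.4% of all genes. The median log2 fold change was 0.90 over the tested members and 0.006 over all genes. At 2-fold or more, 16 members rose and 3 fell, against 21.6 and 21.5% of all genes. Con A and WT libraries were fully separate for 27 higher and 8 lower members, against 35.0 and 34.8% of all genes. As bulk tissue was sequenced, fewer cells of a type and less RNA per cell cannot be told apart in any of these values.

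The interferon-linked and antiviral TRIM genes were mostly higher after Con A. Of 16 listed, 13 were tested, 8 rose and 1 fell, with a median log2 fold change of 1.16 (all genes: 32.5% higher, 30.9% lower, median 0.006). Trim30a, a ligase that restrains NF-kappaB signalling by degrading the adaptors TAB2 and TAB3, rose most among them. Its level was 9.29, 9.83 and 6.85 CPM in the WT libraries and 75.4, 38.1 and 103 CPM in the Con A libraries. Every Con A library was above every WT library, and Con A library 2 was the lowest of its group. The log2 fold change was 3.06 ± 0.32 (SE; edgeR adjusted p = 2.59e-05).

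Trim21, the cytosolic antibody receptor, was at 8.65, 9.32 and 8.61 CPM in WT and 20.0, 20.3 and 23.8 CPM in Con A (log2 fold change 1.27 ± 0.21, edgeR adjusted p = 0.000459). Trim56, which acts on cytosolic nucleic acid sensing, was at 39.4, 40.7 and 34.1 CPM in WT and 86.3, 82.9 and 112 CPM in Con A (1.30 ± 0.18, edgeR adjusted p = 0.00017). Neither pair of groups overlapped. Trim30b rose from 1.30 ± 0.412 to 6.38 ± 1.43 CPM, Trim30c from 1.08 ± 0.346 to 2.50 ± 0.613 CPM, Trim34b from 4.86 ± 0.739 to 10.8 ± 0.797 CPM and Trim34a from 0.859 ± 0.424 to 4.00 ± 1.86 CPM (SD, n = 3). Trim12c, one of the mouse counterparts of the primate capsid-binding TRIM5, rose from 48.1 ± 6.89 to 88.7 ± 8.79 CPM.

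Trim26 went the other way. This ligase is known to dampen interferon-beta production by acting on nuclear IRF3. Its level was 105, 114 and 109 CPM in WT and 66.7, 65.0 and 67.3 CPM in Con A. The Con A libraries lay within 3 CPM of each other and below every WT library (log2 fold change -0.72 ± 0.10, edgeR adjusted p = 0.000143). Trim25, which ubiquitinates the RNA sensor RIG-I, did not pass the test, with 103, 97.7 and 98.5 CPM in WT and 116, 79.9 and 124 CPM in Con A (edgeR adjusted p = 0.632). Its Con A library 2 lay below all WT libraries and its Con A libraries 1 and 3 above them. Trim14, a member without a RING finger that works with the adaptor MAVS (log2 fold change -0.30), Trim30d (0.44) and Trim68 (-0.29) did not pass either. The untested members of the list had few counts, 13 for Trim5, 4 for Trim12a and 31 for Trim38 over all libraries.

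**Figure D2:**
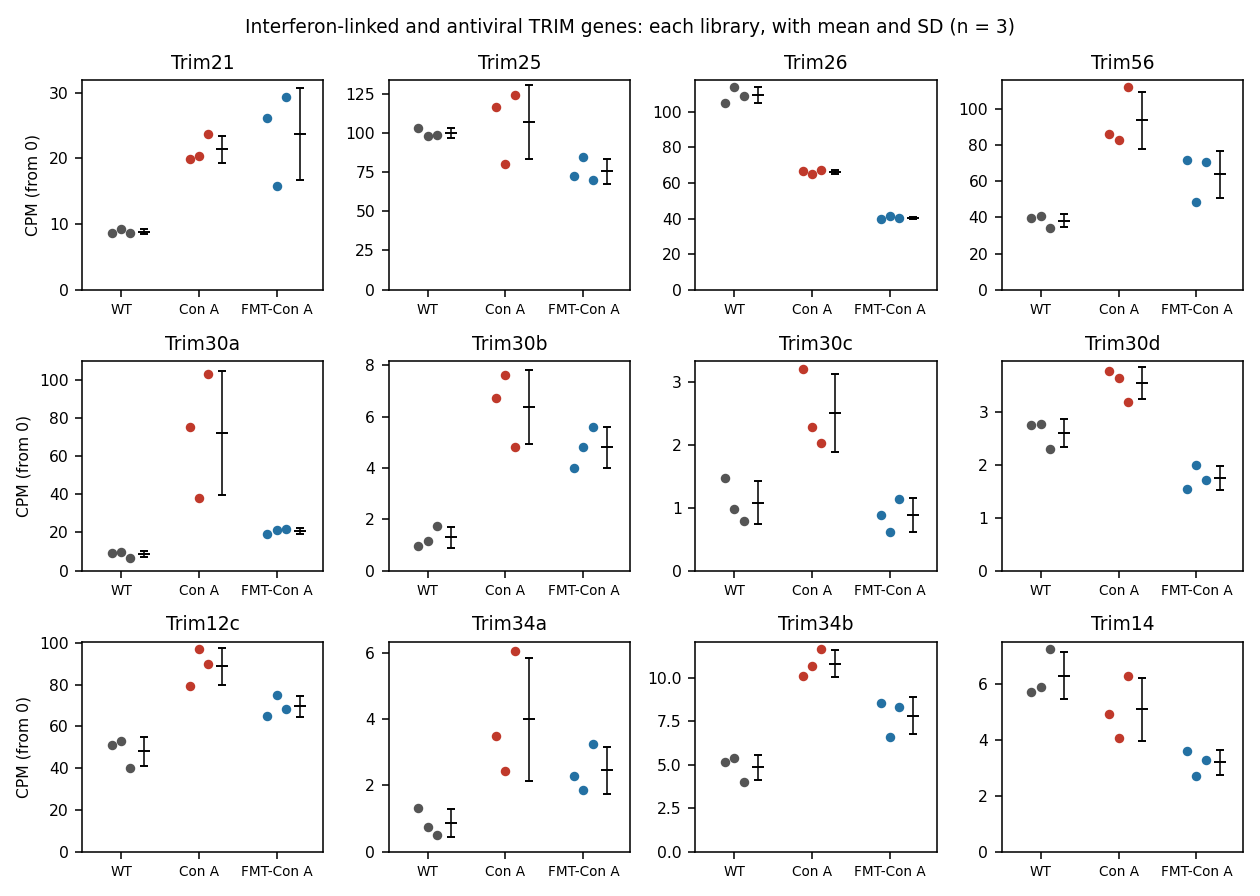
Level of 12 interferon-linked and antiviral TRIM genes in CPM (linear axis from 0), with 1 point per library and, beside it, the group mean and SD (n = 3). Trim30a ran from 38.1 to 103 CPM in Con A and from 19.1 to 21.9 CPM in FMT-Con A, while Trim26 stepped down from 109 to 66.3 and 40.5 CPM on average without overlap between groups.

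On chromosome 7, 10 members lie in an unbroken row (GRCm38, chr7:104218793-104507849, 289057 bases), with no other protein-coding gene between them. In order they are Trim6, Trim34a, Trim5, Trim12a, Trim34b, Trim12c, Trim30b, Trim30c, Trim30a and Trim30d. Of the 8 tested, all except Trim30d rose after Con A, where 32.5% of all genes rose. All members of the row except Trim6 are also in the antiviral list above, so these are largely the same genes. The row arose by duplication, and its members share sequence. Of the 50-base words in their exons, 59.7% for Trim34a, 56.8% for Trim34b, 33.7% for Trim12c, 6.0% for Trim30a and 7.5% for Trim30d also occur in another gene. The values of Trim34a, Trim34b and Trim12c are therefore uncertain, since how reads with several matches were counted is not given in the sources used here.

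Trim6 opens that row and shares 1.5% of its words. It is known to help the kinase IKK-epsilon act in interferon signalling. Its level was 7.37, 6.98 and 6.94 CPM in WT and 34.4, 42.3 and 32.9 CPM in Con A (log2 fold change 2.36 ± 0.13, edgeR adjusted p = 6.28e-07). The groups did not overlap, and WT libraries differed by less than 1 CPM.

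Among TRIM genes listed as regulators of NF-kappaB, STING or RIG-I signalling, 4 of 7 tested rose and 2 fell, with a median log2 fold change of 0.49, where 32.5% of all genes rose and 30.9% fell. Trim8, which promotes activation of the kinase TAK1, rose from 32.9 ± 2.85 to 84.5 ± 3.83 CPM (a log2 change of 1.36 ± 0.11 at edgeR adjusted p = 4.64e-06). Trim32 rose from 3.20 ± 0.277 to 8.94 ± 1.64 CPM, Trim27 from 12.7 ± 1.52 to 23.7 ± 2.32 CPM and Trim39 from 47.0 ± 3.36 to 63.6 ± 15.7 CPM. Trim41 was at 62.9, 65.2 and 60.6 CPM in WT and 24.1, 32.2 and 25.6 CPM in Con A (-1.20 ± 0.13, edgeR adjusted p = 3.48e-05). Trim65, known as a ligase of the RNA sensor MDA5, fell from 15.9 ± 0.642 to 6.96 ± 2.61 CPM (-1.19 ± 0.25, edgeR adjusted p = 0.00206). Trim41 and Trim65 had no overlap between the groups.

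Neighbours did not always move alike. Trim7, whose product binds glycogenin, the primer of glycogen synthesis, lies close to Trim41 on chromosome 11, and both fell. Trim7 was at 49.9, 60.7 and 54.8 CPM in WT and 15.8, 19.8 and 9.49 CPM in Con A (log2 fold change -1.88 ± 0.22, edgeR adjusted p = 5.85e-05). Trim47 and Trim65 overlap by 225 exonic bases on the same strand of chromosome 11 and moved in opposite directions. Trim47 was at 5.22, 3.51 and 6.02 CPM in WT and 27.3, 21.7 and 25.6 CPM in Con A (2.33 ± 0.19, edgeR adjusted p = 5.62e-06). On chromosome 17, Trim26 fell and Trim10 rose, from 0.220 ± 0.151 to 0.895 ± 0.436 CPM, in a row of 5 members of which the other 3 were not tested.

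The members with NHL repeats, a propeller that binds RNA or protein, were split. Trim3, known from neurons and early endosomes, was at 17.0, 16.4 and 17.2 CPM in WT and 68.2, 92.0 and 59.6 CPM in Con A (log2 fold change 2.12 ± 0.16, edgeR adjusted p = 3.91e-06). All Con A libraries were more than 40 CPM above the WT libraries. Trim32, given above, also rose. Trim2, a ligase of neurofilament light chain, was at 27.0, 24.4 and 25.7 CPM in WT and 17.5, 15.1 and 16.7 CPM in Con A (-0.64 ± 0.11, edgeR adjusted p = 0.000618). Trim71 had 9 counts in all and was not tested.

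Of the transcriptional co-regulators with a PHD finger and a bromodomain, 1 of 3 tested fell, against 30.9% of all genes. Trim28, the corepressor that KRAB zinc finger proteins recruit, fell from 64.3 ± 4.48 to 50.1 ± 3.61 CPM (a log2 change of -0.36 ± 0.11 at edgeR adjusted p = 0.0158). Trim24, a co-regulator of retinoic acid receptors, was at 45.0, 35.1 and 41.7 CPM in WT and 27.1, 44.7 and 27.5 CPM in Con A, and Trim33, which acts on SMAD4, at 33.0 ± 1.39 and 29.1 ± 2.28 CPM. Neither passed the test (edgeR adjusted p = 0.283 and 0.148). Con A library 2 stood apart for Trim24, and without it Trim24 passed at -0.58 on the log2 scale (edgeR adjusted p = 0.0307). Trim66 had 12 counts in all.

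Of the remaining members, Trim43b, Trim43c, Trim44, Trim35 and Trim11 rose. Trim43 genes are known from the early embryo, and Trim43a, Trim43b and Trim43c share 45.9, 47.7 and 58.6% of their 50-base words with other genes, so their values are uncertain. Trim43b rose from 0.429 ± 0.213 to 1.48 ± 0.550 CPM and Trim43c from 0.278 ± 0.124 to 0.888 ± 0.128 CPM. Trim44, a member with a ubiquitin-binding zinc finger in place of the RING, rose from 28.4 ± 1.53 to 44.1 ± 5.76 CPM. Trim11 rose by 0.36 on the log2 scale (edgeR adjusted p = 0.0331), with overlapping groups.

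The call of 5 members in this comparison rested on single libraries. Trim39 (edgeR adjusted p = 0.0405) lost it without WT library 1, 2 or 3, Con A library 2 or FMT-Con A library 1 or 3, at edgeR adjusted p between 0.05 and 0.12. Trim11 lost it without WT library 1 or 3 or Con A library 1 or 2 (edgeR adjusted p 0.0794 to 0.132) and Trim35 without WT library 1 or 2 or Con A library 1 or 3 (0.0835 to 0.119). Trim28 lost it without WT library 3 (0.0573) or Con A library 1 (0.0644), and Trim10 without WT library 2 (0.0755) or Con A library 1 (0.0956). The other 22 calls were kept whenever 1 library was left out.

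**Figure D3:**
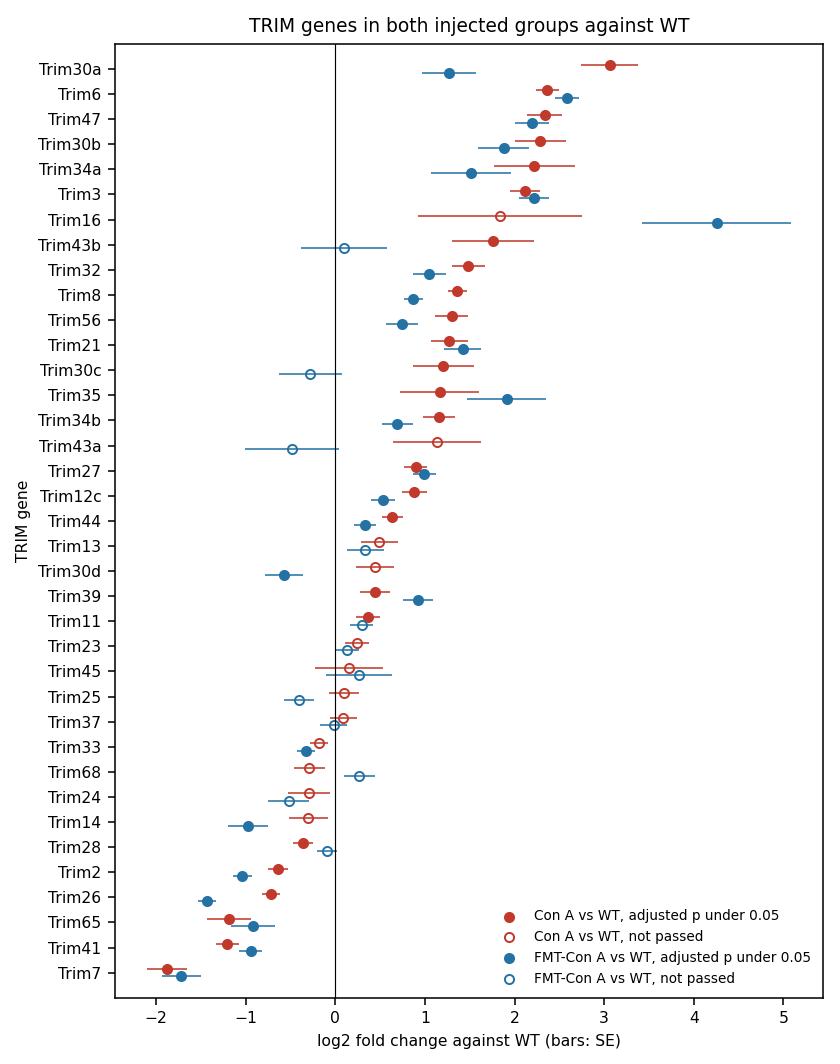
log2 fold change against WT of the 37 TRIM genes outside the striated muscle group with a mean of at least 1 CPM in any group, for Con A (red) and FMT-Con A (blue), with SE bars; filled points passed the test. Trim30a was at 3.06 after Con A and 1.27 after faecal transfer and Con A, while Trim6 was at 2.36 and 2.58.

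Faecal transfer before Con A was next compared with Con A alone. In this comparison 3 members rose, Trim16, Trim63 and Trim72, and 8 fell, Trim2, Trim8, Trim26, Trim30a, Trim30c, Trim30d, Trim43b and Trim43c, where 6.26% of all genes rose and 10.6% fell. These 11 are 23.4% of the tested members, against 16.8% of all genes. At 2-fold or more, 3 rose and 5 fell, against 3.64 and 4.51% of all genes. The median log2 fold change was -0.14 over the 47 tested members and -0.009 over all genes. Groups did not overlap for 4 members in the higher direction, against 14.0% of all genes, and for 15 in the lower direction, against 18.8%. This contrast and the previous one share the Con A libraries, so their values are only set side by side.

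The antiviral list held 4 of the 8 falls and no rise among its 13 tested genes (edgeR), against 10.6 and 6.26% of all genes. At an unadjusted p under 0.05 (edgeR), 9 were lower and 1 higher, for which the share of all genes was not counted. DESeq2 called 7 lower and 1 higher, and 3970 of all genes in either direction. Trim30a was at 19.1, 21.6 and 21.9 CPM in FMT-Con A, below its lowest Con A library at 38.1 CPM. The log2 fold change was -1.79 ± 0.30 (edgeR adjusted p = 0.00684). Trim26 was at 40.0, 41.2 and 40.3 CPM, again below every Con A library (-0.71 ± 0.10, edgeR adjusted p = 0.00331). The hepatocyte marker sum stepped down over the 3 groups in the same order as Trim26 and Trim2. Its 7 genes were split: after Con A 2 rose, Cps1 and Hnf4a, and 3 fell, against 32.5 and 30.9% of all genes. Between Con A and FMT-Con A 0 of them rose and 2 fell, against 6.26 and 10.6% of all genes. Trim30a came closer to WT while Trim26 went further from it.

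Trim30c was at 3.19, 2.28 and 2.03 CPM in Con A and 0.884, 0.617 and 1.14 CPM in FMT-Con A (log2 fold change -1.49 ± 0.34, edgeR adjusted p = 0.0206). Trim30d was at 3.77, 3.64 and 3.19 CPM in Con A and 1.55, 1.99 and 1.72 CPM in FMT-Con A (-1.01 ± 0.22, edgeR adjusted p = 0.0156). Both groups were separate in both genes. Trim30b, which lies between Trim12c and Trim30c, did not pass, with 6.70, 7.62 and 4.81 CPM in Con A and 4.01, 4.80 and 5.61 CPM in FMT-Con A (edgeR adjusted p = 0.302). Of the 5 members with a RefSeq window that fell here, Trim2, Trim26, Trim30a and Trim30d held an ISRE match, as did 3 of the 29 with a window that did not pass. Trim2 held it in 1 of its 5 windows. In Con A against WT the match was in 4 of 15 members that rose, 2 of 5 that fell and 1 of 16 that did not pass. These counts were made after the values were seen.

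Outside that list, Trim8 was at 80.6, 88.3 and 84.6 CPM in Con A and 61.8, 59.3 and 59.2 CPM in FMT-Con A (log2 fold change -0.49 ± 0.11, edgeR adjusted p = 0.0164). Trim2 was at 12.9, 11.6 and 13.0 CPM in FMT-Con A, below its lowest Con A library at 15.1 CPM (-0.39 ± 0.11, edgeR adjusted p = 0.0388). Trim43b and Trim43c were at 0.463 ± 0.0561 and 0.333 ± 0.0487 CPM, with log2 fold changes of -1.66 and -1.40. The co-regulators Trim24, Trim28 and Trim33 had 0 calls here, where 6.26% of all genes rose and 10.6% fell (edgeR; 1 higher and 0 lower at an unadjusted p under 0.05, and 0 by DESeq2). For Trim28, FMT-Con A stood at 64.0, 58.9 and 58.2 CPM, above the Con A libraries at 46.2 to 53.3 CPM (0.27 ± 0.11, edgeR adjusted p = 0.116).

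Of these 11 calls, Trim26 and Trim30a held whichever single library was left out. Trim8 lost its call without FMT-Con A library 1 (edgeR adjusted p = 0.0671) or 3 (0.0715), and Trim30d without Con A library 1 (0.0619) or FMT-Con A library 1 (0.0777) or 3 (0.0659). Trim30c lost it without the same 3 libraries (0.0833, 0.0848 and 0.051). Trim2 lost it without any library except Con A library 2 (0.07 to 0.142), Trim43c without any except WT library 3 (0.0521 to 0.138) and Trim43b without WT library 2, Con A library 1 or 2 or FMT-Con A library 1 or 3 (0.0508 to 0.128). Trim16, Trim63 and Trim72 lost it without WT library 1, Con A library 1 or 2 or FMT-Con A library 1 or 3 (0.0618 to 0.148). Trim16 also lost it without WT library 3 (0.0511) or Con A library 3 (0.0667), and Trim63 and Trim72 without WT library 2 or 3 (0.0657 to 0.0795). The counts ranged from 0 to 7 higher and from 2 to 12 lower members, with 0 higher without WT library 1 or 3, Con A library 1 or FMT-Con A library 1 or 3 (edgeR; 7 or 8 higher at an unadjusted p under 0.05).

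Without Con A library 2, several members that had not passed did so. Trim25 was then lower in FMT-Con A, at -0.65 on the log2 scale (edgeR adjusted p = 0.00949), Trim14 at -0.80 (0.0332) and Trim56 at -0.63 (0.047), while Trim39 was higher at 0.72 (0.0043) and Trim68 at 0.61 (0.0478). Without FMT-Con A libraries 1 and 3, which leaves 1 library in that group whose spread is assumed equal to that of the others, no member passed (edgeR; 0 higher and 11 lower at an unadjusted p under 0.05), and 99 genes of all passed. The log2 fold changes then were -1.75 for Trim30a (edgeR adjusted p = 0.152), -0.69 for Trim26 (0.108), -0.51 for Trim8 (0.204) and -0.82 for Trim30d (0.261), against -1.79, -0.71, -0.49 and -1.01 with all libraries.

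**Figure D4:**
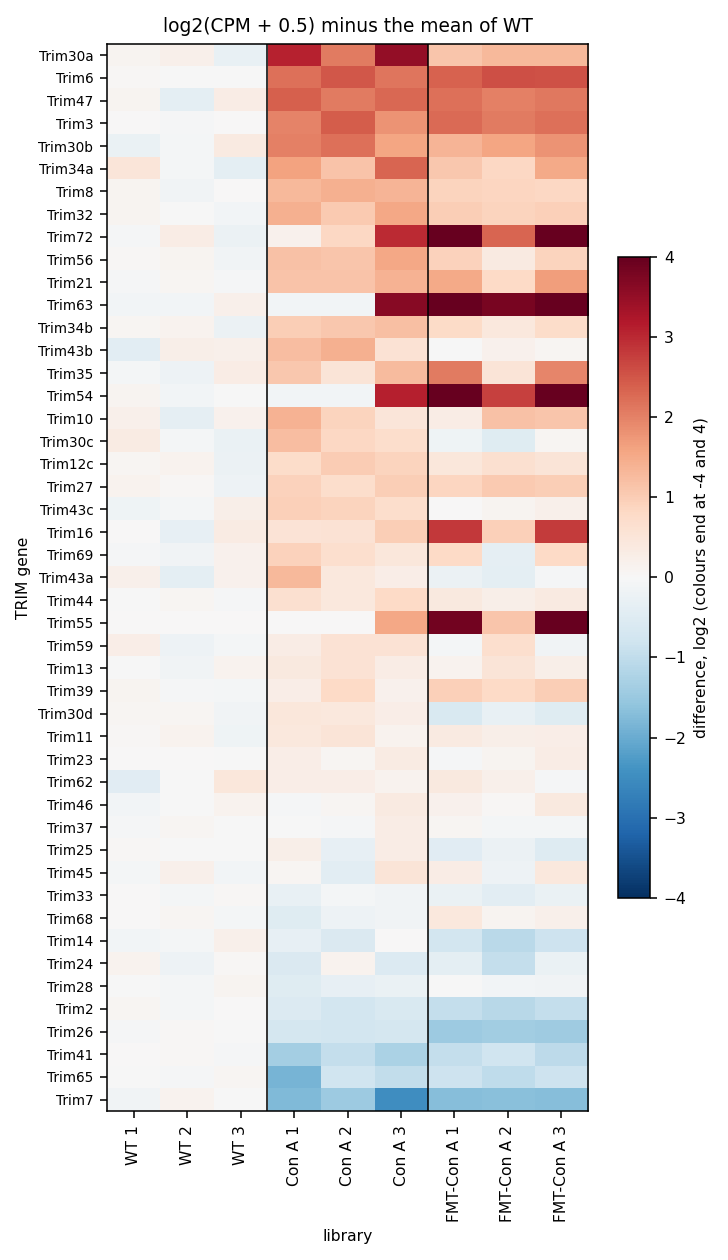
log2(CPM + 0.5) of the 47 tested TRIM genes minus the mean of the 3 WT libraries, 1 column per library, with colours ending at a difference of 4 in either direction. Trim6, Trim47 and Trim3 were high in all 6 libraries of injected mice, Trim30a was highest in Con A, Trim26 and Trim2 were lower in FMT-Con A than in the other groups, and Trim54, Trim55, Trim63 and Trim72 were high in Con A library 3 and the FMT-Con A libraries.

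The 4 TRIM genes of striated muscle followed the muscle markers. Trim63 (MuRF1), Trim55 (MuRF2) and Trim54 (MuRF3) act on sarcomere and microtubule proteins, and Trim72 (MG53) repairs the muscle cell membrane. Trim63 had 0, 0 and 3 counts in the WT libraries, 0, 0 and 151 in the Con A libraries and 2103, 148 and 1564 in the FMT-Con A libraries. Trim54 had 2, 0 and 1, then 0, 0 and 100, then 832, 65 and 629 counts in the same order. Con A library 3 and FMT-Con A libraries 1, 2 and 3, which held these counts, are the libraries in which the skeletal muscle list summed to 2044 CPM or more.

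In those 4 libraries the ratio of Trim54, Trim55 and Trim63 to the muscle list varied little. Per 1000 counts of the list there were 2.62, 3.40, 3.36 and 3.08 counts of Trim63, 1.73, 1.34, 1.47 and 1.24 of Trim54, and 0.399, 0.345, 0.272 and 0.380 of Trim55. Trim72 stood at 3.38, 1.94, 2.38 and 1.75 there. In Con A libraries 1 and 2 it was at 64.5 and 69.3 per 1000, from 14 and 30 counts, so that its counts there were not in that ratio. Neb held 131 and 232 of the list's counts in those 2 libraries, more than any other listed gene. Trim54 and Trim72 share 18.4 and 23.8% of their 50-base words with antisense genes, and reads of the partners may be mixed in their values. The list as a whole was higher for 21 of 21 tested genes in FMT-Con A against WT (edgeR; 5 by DESeq2), where 31.2% of all genes rose. In Con A against WT 19 were higher (edgeR; 5 by DESeq2), where 32.5% of all genes rose. There the list summed to 2229 CPM in Con A library 3 and to 9.82 and 19.9 CPM in libraries 1 and 2. The listed gene Tnnc2 had 0 counts in WT and Con A. Cardiac markers summed to 44.1, 7.04 and 43.1 CPM in FMT-Con A and to 1.61 to 6.53 CPM elsewhere. In FMT-Con A the sum came mostly from Myh6, with 1182, 99 and 956 counts, against at most 65 for any other. Of 5 cardiac genes tested against WT, only Myh6 was higher in FMT-Con A, where 31.2% of all genes rose.

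**Figure D5:**
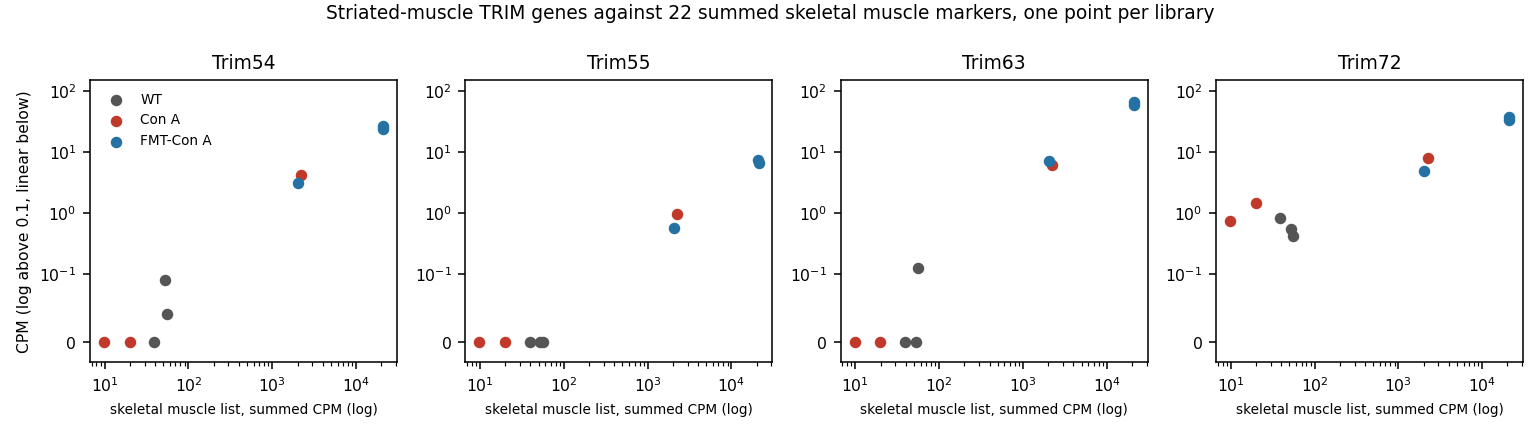
Level of Trim54, Trim55, Trim63 and Trim72 in CPM (log axis above 0.1, linear below) against the summed CPM of 22 skeletal muscle markers (log axis, scaled to the library total only), 1 point per library coloured by group. In all 4 panels the libraries with muscle sums of 20970 to 21020 CPM lie above those with 2044 to 2229 CPM, and these above the rest.

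Against WT, Trim55 was at least 119-fold higher in FMT-Con A (419 counts against 0, with a floor of 3 counts over the group), Trim54 was higher by a ratio of 432.5 (95% counting interval 148 to 2100) and Trim63 by a ratio of 1081 (370 to 5246). Trim72 rose by 5.41 ± 1.04 on the log2 scale (edgeR adjusted p = 0.00151). Trim54 and Trim55 did not pass against WT without FMT-Con A libraries 1 and 3 (edgeR adjusted p = 0.0619 and 0.118). Between FMT-Con A and Con A, Trim63 (4.35 ± 1.26, edgeR adjusted p = 0.0433) and Trim72 (2.88 ± 0.86, edgeR adjusted p = 0.0478) passed. Without FMT-Con A libraries 1 and 3 their log2 fold changes were 1.71 and 0.52 (edgeR adjusted p = 0.643 and 0.827). Trim54 and Trim55 passed between these groups without Con A library 3 (edgeR adjusted p = 0.00751 and 0.0368) or FMT-Con A library 2 (0.0242 and 0.0201). Between Con A and WT none of the 4 passed (edgeR; 3 higher at an unadjusted p under 0.05, and 1 higher by DESeq2), where Con A library 3 held all Con A counts of Trim54 and Trim63. Trim54, Trim63 and Trim72 passed without Con A library 1 (edgeR adjusted p 0.0259 to 0.0362), Con A library 2 (0.0346 to 0.0438) or FMT-Con A library 2 (0.021 to 0.0464), and all 4 with no filter on low counts (0.00341 to 0.0203).

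Trim16 and Trim35 were also highest in FMT-Con A libraries 1 and 3, and the part of the muscle transcripts in this was not tested. Trim16, a member without a RING finger that is recruited to damaged lysosomes, had 3, 0 and 7 counts in the WT libraries, 8, 9 and 18 after Con A alone and 127, 15 and 103 after both treatments. Its log2 fold change between FMT-Con A and Con A was 2.42 ± 0.71 (edgeR adjusted p = 0.0437), and 0.40 without libraries 1 and 3 (edgeR adjusted p = 0.86). Trim35 stood at 8.49, 2.56 and 7.74 CPM in FMT-Con A and 3.98, 2.57 and 4.68 CPM in Con A. It did not pass between these groups (edgeR adjusted p = 0.231), and its log2 fold change turned from 0.75 to -0.55 without libraries 1 and 3.

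Both treatments together were last compared with WT. In FMT-Con A 22 of the 47 tested members rose and 8 fell, where 31.2% of all genes rose and 27.9% fell. The 22 include Trim54, Trim55, Trim63 and Trim72, which followed the muscle markers, and Trim16. These 30 are 63.8% of the tested members, against 59.0% of all genes. At 2-fold or more, 15 rose, the same 5 genes among them, and 3 fell, against 19.1 and 18.4% of all genes, and libraries were fully separate for 24 higher and 10 lower members, against 35.4 and 33.7%. The median log2 fold change was 0.34 over the members and 0.032 over all genes. Without FMT-Con A libraries 1 and 3, which leaves 1 library in that group, fewer members and fewer of all genes passed. Trim6 was at 38.5, 44.9 and 44.2 CPM in FMT-Con A (log2 fold change 2.58 ± 0.13, edgeR adjusted p = 6.63e-07), Trim3 at 83.6, 72.5 and 79.6 CPM (2.22 ± 0.16, edgeR adjusted p = 4.67e-06) and Trim47 at 24.1, 21.2 and 22.2 CPM (2.19 ± 0.19, edgeR adjusted p = 1.19e-05). All 3 genes lay far above their WT libraries, which reached 17.2 CPM at most.

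Trim21 was at 26.1, 15.8 and 29.3 CPM in FMT-Con A, with library 2 below every Con A library and libraries 1 and 3 above them. Its rise over WT passed (log2 fold change 1.42 ± 0.21, edgeR adjusted p = 0.000296). Trim56 stood at 71.9, 48.5 and 70.6 CPM (0.74 ± 0.18, edgeR adjusted p = 0.00553). Without libraries 1 and 3 Trim56 did not pass, at 0.35 (edgeR adjusted p = 0.24). Trim30a stayed above WT in all FMT-Con A libraries (1.27 ± 0.31, edgeR adjusted p = 0.00537).

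Trim26 had the lowest ratio to WT of the antiviral list (log2 fold change -1.43 ± 0.10, edgeR adjusted p = 3.36e-06). Trim14 was at 3.60, 2.71 and 3.28 CPM in FMT-Con A against 5.72, 5.90 and 7.27 CPM in WT (-0.97 ± 0.22, edgeR adjusted p = 0.00374). Of its 50-base words 33.9% are shared, mostly with Nans on the opposite strand, so its value is uncertain. Trim7, Trim41, Trim2 and Trim65 fell by 1.72, 0.94, 1.04 and 0.92 on the log2 scale, and Trim33 by 0.33 (edgeR adjusted p = 0.0204). Trim30d fell by 0.57 (edgeR adjusted p = 0.0425). Trim25 was at 72.4, 84.6 and 69.7 CPM, below every WT library, and did not pass (-0.40 ± 0.17, edgeR adjusted p = 0.062).

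Some of these calls rested on single libraries. Trim30d lost it without WT library 1 or 2, Con A library 1 or 3 or FMT-Con A library 1 or 3 (edgeR adjusted p 0.0534 to 0.152), Trim33 without WT library 1 or 3 or FMT-Con A library 1 or 2 (0.0535 to 0.0704) and Trim44 without any WT library or FMT-Con A library 1 or 3 (0.0576 to 0.106). Trim10 lost it without WT library 2 or 3 or FMT-Con A library 2 or 3 (0.0552 to 0.0931), and Trim34a without WT library 3 (0.0557) or FMT-Con A library 3 (0.0539). Trim25 passed without Con A library 2 (0.0166) or FMT-Con A library 2 (0.0484), Trim24 without Con A library 2 (0.0308), and Trim11 without Con A library 2 (0.0431) or 3 (0.0445). Without FMT-Con A libraries 1 and 3, Trim16 (2.23, edgeR adjusted p = 0.112), Trim35 (0.62, 0.292), Trim34b (0.44, 0.196) and Trim65 (-1.08, 0.0636) did not pass, nor did Trim10, Trim30d, Trim33, Trim34a and Trim44 (0.0556 to 0.385), Trim54, Trim55 and Trim56, while Trim24 passed (-0.98, 0.0378).

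The calls were also set side by side over the 3 comparisons, which share libraries. The share of all genes with each combination of calls was not counted, so no combination can be called particular to the members. The most common combination, with 15 members, was higher in both injected groups than in WT with no call between them. It held Trim3, Trim6, Trim12c, Trim21, Trim30b, Trim47 and Trim56 among others. Trim8 and Trim30a were higher after Con A, lower again in FMT-Con A and still above WT. Trim30c, Trim43b and Trim43c were higher after Con A and lower in FMT-Con A, with no call between FMT-Con A and WT. Trim2 and Trim26 were lower at each step, Trim7, Trim41 and Trim65 were lower in both injected groups than in WT with no call between them, and 12 members passed in no comparison.

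The rest of the pathway was read from lists of genes around the TRIM ligases. Of 10 ubiquitin-conjugating enzymes that serve RING ligases, 8 rose after Con A and 0 fell (median log2 fold change 0.51), where 32.5% of all genes rose and 30.9% fell. Among them, Ube2n, the enzyme for lysine-63 chains, went from 26.5 ± 0.903 to 55.6 ± 2.98 CPM, and Ube2l6, the enzyme for the ubiquitin-like ISG15, from 75.6 ± 0.821 to 165 ± 9.59 CPM. None of the 10 passed between FMT-Con A and Con A, where 6.26% of all genes rose and 10.6% fell (edgeR; 5 lower and 1 higher at an unadjusted p under 0.05, and 3 lower by DESeq2). Of 15 genes of RNA and DNA sensing, on which many TRIM ligases act, 12 rose and 1 fell after Con A (median log2 fold change 1.05, and the same 32.5 and 30.9% of all genes), and 9 fell between Con A and FMT-Con A (median -0.58), where 10.6% of all genes fell. Ikbke, the kinase IKK-epsilon, was at 27.6 ± 0.890 CPM in WT, 408 ± 37.7 CPM after Con A and 198 ± 20.6 CPM in FMT-Con A. Ifih1, the RNA sensor MDA5, was at 37.9 ± 5.88, 134 ± 30.2 and 50.4 ± 8.28 CPM.

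Of 12 interferon signalling genes, 9 rose and 2 fell after Con A, against 32.5 and 30.9% of all genes, and 4 fell, against 10.6% of all genes, between Con A and FMT-Con A, namely Ifng, Ifngr1, Jak1 and Jak2. Ifng, which encodes interferon-gamma, was at 0.168 ± 0.141 CPM in WT, 15.2 ± 2.95 CPM after Con A and 3.59 ± 0.405 CPM in FMT-Con A (a log2 change of -2.09 between the injected groups, edgeR adjusted p = 0.00353). Of 8 partners of Trim28 in silencing, 3 fell after Con A, against 30.9% of all genes. One of them, Setdb1, a histone methyltransferase, went from 38.8 ± 1.20 to 23.3 ± 2.52 CPM. Of 4 tested TRIM relatives under other symbols, Pml, which forms nuclear bodies, and Mefv, which encodes pyrin, rose after Con A. Pml went from 28.6 ± 1.77 to 64.7 ± 6.10 CPM and was at 38.6 ± 2.23 CPM in FMT-Con A (log2 fold change -0.75 between the injected groups, edgeR adjusted p = 0.00431), and Mefv was at 0.307 ± 0.160, 6.65 ± 1.39 and 4.37 ± 0.452 CPM (SD, n = 3).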

How the data were processed

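Polyadenylated liver RNA was read from both ends on an Illumina HiSeq, per the labels' protocols. The values are read counts per gene as the authors deposited them, 1 file per library, not normalised. The submitters' processing notes name CASAVA, HISAT2, featureCounts and GRCm38 (mm10); tool versions, annotation release, strand setting and the treatment of reads with several matches are not given in the sources used here. The labels number the mice of a group and say no more on whether they were separate animals, so p-values measure only how these libraries vary.

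Symbols and exon lengths came from GENCODE vM21, which paired 52083 of 55359 Ensembl identifiers with a symbol, and promoters from RefSeq. The 1360 numbered gene models without an Ensembl identifier held 1.43 to 1.98% of counts and were kept. A single fit held all 9 libraries, in edgeR 4.0.16 (R 4.3.3) with TMM scaling and the quasi-likelihood test, two-sided, with 6 residual degrees of freedom. filterByExpr (minimum count 10, minimum total 15) kept 17704 genes, over which p-values were Benjamini-Hochberg adjusted. Levels of single genes are CPM on TMM-scaled library sizes, with SD over 3 libraries, and log2 fold changes use a prior count of 0.125. The sums of marker lists and the values of Ddx3y are instead CPM of the library total, without TMM scaling. Their ranges are therefore not on the scale of the TRIM values. Floors and counting intervals cover counting error only. DESeq2 1.42.0, RLE factors, no filter, fits of only the compared groups, a replicate block, scaling without muscle and mitochondrial genes, and leaving out libraries were the alternatives. DESeq2 called 11365 genes in Con A against WT, 3970 in FMT-Con A against Con A and 10567 in FMT-Con A against WT, not split by direction. For all counts at an unadjusted p, the share of all genes was not counted, so those counts have no background beside them. The fit was tested on simulated data with known changes.

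Named members are the 12 with the lowest p per direction and comparison, all with counts in the antiviral, chromatin and muscle lists, all past the threshold between FMT-Con A and Con A, and the 10 highest by mean RPKM. Trim10, Trim13, Trim35, Trim43a, Trim44, Trim71 and the members with 0 counts were named after their values were seen. From the other lists at most 4 genes are named. The members and lists were chosen with earlier results of these data known.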

Additional observations from a re-analysis of the deposited data

How the results depend on the processing

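The counts of Con A against WT stayed within 1.5 times under every alternative run. Those of FMT-Con A against Con A did not. Of all genes 2981 passed, 1156 with only the 2 groups fitted, 664 to 4053 with 1 library left out, and 99 without FMT-Con A libraries 1 and 3. Of TRIM genes, 3 were higher, 0 with only the 2 groups fitted (edgeR; 8 at an unadjusted p under 0.05), 5 with no filter and 0 to 7 with 1 library left out; 8 were lower, 5 with only the 2 groups, 2 to 12 with 1 library left out. Without FMT-Con A libraries 1 and 3 both counts were 0 (edgeR; 0 higher and 11 lower at an unadjusted p under 0.05), and against WT 6957 genes passed, where 10449 passed with all libraries, and 13 TRIM genes were higher, where 22 were. Replicate numbers are not stated to pair the libraries. Deviations of same-numbered libraries correlated between -0.216 and 0.344, and those of differently numbered ones between -0.432 and 0.362. With 3 libraries per group these values cannot decide whether the libraries pair. With a replicate block 5 TRIM genes were higher between FMT-Con A and Con A, and 6 lower, and Trim54, Trim55 and Trim63 passed between Con A and WT (edgeR adjusted p 0.0272 to 0.0454). RLE factors and scaling without muscle and mitochondrial genes changed no call of a named member.

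Log2 fold changes that turned in sign belonged to uncalled members, and the cause was not tested. With 1 library left out, Trim25 ranged from -0.02 to 0.27, Trim54 from -3.21 to 5.71 and Trim63 from -3.21 to 8.66 between Con A and WT, each lowest without Con A library 3. Trim54 and Trim63 then have 0 Con A counts against 3 in WT, so -3.21 depends on the prior count and is no measured fold. Between FMT-Con A and Con A the ranges were -0.03 to 0.31 for Trim3, -0.09 to 0.43 for Trim7, -0.41 to 0.34 for Trim10, -0.18 to 0.03 for Trim11, -0.02 to 0.39 for Trim21 and -0.35 to 0.07 for Trim24. Without FMT-Con A libraries 1 and 3, Trim3 was at -0.01, Trim10 at 0.30, Trim13 at 0.08, Trim21 at -0.44 and Trim35 at -0.55. Between FMT-Con A and WT, Trim43b ranged from -0.26 to 0.32. Low counts limit Trim10, Trim16, Trim43b and Trim43c, which lie under 1 CPM in WT.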
